A study of Mus musculus with 12 samples.

Results

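Hyaluronan is a long, unbranched sugar polymer of the extracellular matrix, and its metabolism was followed through 5 genes: Has2, which encodes a hyaluronan synthase, Hyal1, Hyal2 and Hyal3, which encode hyaluronidases, and Cd44, which encodes the best known hyaluronan receptor of blood cells. The 5 genes were taken by name from a table of 34745 genes, and all 5 were found. They were chosen by a measured value, the rise of Has2 in leucogen over model seen in earlier results of these data, so every comparison of Has2 that uses either of those groups is given as a description without a test. For the other 4 genes the leucogen to model difference is also given without a test.

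Hyaluronan synthases sit in the plasma membrane, join UDP-glucuronic acid and UDP-N-acetylglucosamine in turn, and push the growing chain out of the cell. Hyaluronidases cut the chain, with HYAL2 anchored at the cell surface and HYAL1 working in lysosomes, where hexosaminidase and glucuronidase then remove the end sugars. In bone marrow hyaluronan forms part of the matrix in which blood cells develop, and CD44 lets them bind to it.

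The libraries were made from all cells flushed from the femoral marrow of 12 male ICR mice, which are outbred, and each of 4 groups held 3 mice. Normal mice had saline only, by mouth and by intraperitoneal injection. Model mice had oral saline and, from day 5 to day 7, intraperitoneal cyclophosphamide at 80 mg/kg/day, an alkylating drug that kills dividing marrow cells. QJSB mice had that cyclophosphamide together with QJSB, a herbal granule, by mouth at 3 g/kg/day from day 1 to day 7. Leucogen mice had it together with leucogen, a drug used against low white cell counts, by mouth at 20 mg/kg/day over the same 7 days. The drugs were given to mice under cyclophosphamide only, so neither drug was tested alone. In the table the groups are headed Blank, Model, Stilbene and Positive, and only Model is also a group name in the labels. Blank was read as normal, Positive as leucogen and Stilbene as QJSB, by meaning and by elimination, and the mean levels of these columns then lay within 1% of the base means in the study's supplementary gene lists for 298 of 300 genes (model against normal), 300 of 300 (QJSB against model) and 300 of 300 (leucogen against model). Any other way of setting columns against comparisons gave at most 10 of 300.

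Library totals ran from 11172547 to 18545198 counts. CPM here are counts scaled to a common library size by TMM factors. Fold changes and adjusted p are those of edgeR (quasi-likelihood, Benjamini-Hochberg over every gene tested), and a gene passed the cutoff with a change of over 1.5-fold in either direction and an adjusted p under 0.05. The labelled tissue was checked by marker lists. The summed CPM of 7 erythroid markers was 6272 to 7183 in normal and 40.3 to 309 in the 9 libraries given cyclophosphamide, that of 9 B lineage markers was 1619 to 1649 against 8.50 to 115, and that of 4 cartilage markers was at most 2.19 in any library. In bulk RNA of this kind, fewer cells of a type and less RNA per cell cannot be told apart.

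Has2 (ENSMUSG00000022367) lies on the minus strand of chromosome 15, from 56665627 to 56694539 of GRCm38, and has a single annotated transcript of 4237 exon bases. Cd44 (ENSMUSG00000005087) lies on the minus strand of chromosome 2, from 102811141 to 102901665, with 9 transcripts. The 3 hyaluronidase genes lie side by side on the plus strand of chromosome 9: Hyal2 (ENSMUSG00000010047) from 107567945 to 107572779, Hyal1 (ENSMUSG00000010051) from 107576927 to 107581710 and Hyal3 (ENSMUSG00000036091) from 107580818 to 107587359. Hyal1 and Hyal3 share 159 exon bases with each other, and Hyal1 shares 1920 and Hyal3 118 with Nat6, an acetyltransferase gene on the same strand. How shared reads were divided is not given in the sources used here, so the levels of Hyal1 and Hyal3 are uncertain to that extent.

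The stretches just upstream of Cd44, the most abundant of the 5 genes, and of Hyal1, the least abundant per length by its mean in every group, are shown to place the start sites. They end at the base before the annotated gene start, in RefSeq sequence of GRCm38.p6, which is that of the reference strain and not of ICR mice. Capitals mark the GC box GGGCGG, here read on the opposite strand as CCGCCC in 2 overlapping copies.
Cd44, chr2:102901666-102901915, minus strand: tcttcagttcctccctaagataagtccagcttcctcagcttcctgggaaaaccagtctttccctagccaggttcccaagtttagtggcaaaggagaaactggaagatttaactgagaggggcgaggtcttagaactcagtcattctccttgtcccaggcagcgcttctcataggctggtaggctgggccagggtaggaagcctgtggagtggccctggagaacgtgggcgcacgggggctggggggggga
Hyal1, chr9:107576700-107576926, plus strand: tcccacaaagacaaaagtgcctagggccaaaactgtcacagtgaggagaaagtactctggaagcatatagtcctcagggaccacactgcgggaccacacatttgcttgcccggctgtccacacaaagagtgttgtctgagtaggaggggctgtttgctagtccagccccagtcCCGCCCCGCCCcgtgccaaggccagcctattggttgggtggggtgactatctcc
The Hyal1 stretch of 227 bases held the GC box and the Cd44 stretch of 250 bases did not. In windows of 300 bases that reach past the start into the gene, GGGCGG on either strand was found for all 4 members with a window, Cd44, Hyal1, Hyal2 and Hyal3, and in 35.7% of 32851 windows. TATAAA was found in 0 of the 4 and in 13.6% of all windows, and CACGTG in 0 of the 4 and in 7.15%. These matches are a description of letters only.

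Per length, Cd44 stood far above the other members, and Has2 was second in normal and leucogen marrow but fell into the range of the hyaluronidases in model and QJSB marrow. Cd44 had 32.5 ± 0.63 FPKM (SD, n = 3) in normal, 30.5 ± 1.41 in model, 35.8 ± 7.01 in QJSB and 40.2 ± 1.24 in leucogen. Has2 had 7.27 ± 0.62 FPKM in normal, 0.22 ± 0.23 in model, 0.30 ± 0.19 in QJSB and 3.88 ± 1.16 in leucogen. Hyal3 had 0.80 ± 0.22 FPKM in normal, above Hyal2 with 0.44 ± 0.15 and Hyal1 with 0.28 ± 0.043, and the ranges of Hyal2 and Hyal1 overlapped. In model the order was Hyal3 (0.40 ± 0.081 FPKM), Hyal2 (0.31 ± 0.088), Has2 and Hyal1 (0.21 ± 0.051), and each neighbouring pair overlapped. In QJSB the order was Hyal3 (0.34 ± 0.011 FPKM), Has2, Hyal2 (0.28 ± 0.12) and Hyal1 (0.16 ± 0.028), again with overlap between neighbours. In leucogen the 3 hyaluronidases had 0.30 ± 0.14 (Hyal2), 0.28 ± 0.076 (Hyal3) and 0.19 ± 0.044 FPKM (Hyal1), with overlapping neighbours, all below Has2.

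**Figure D1:**
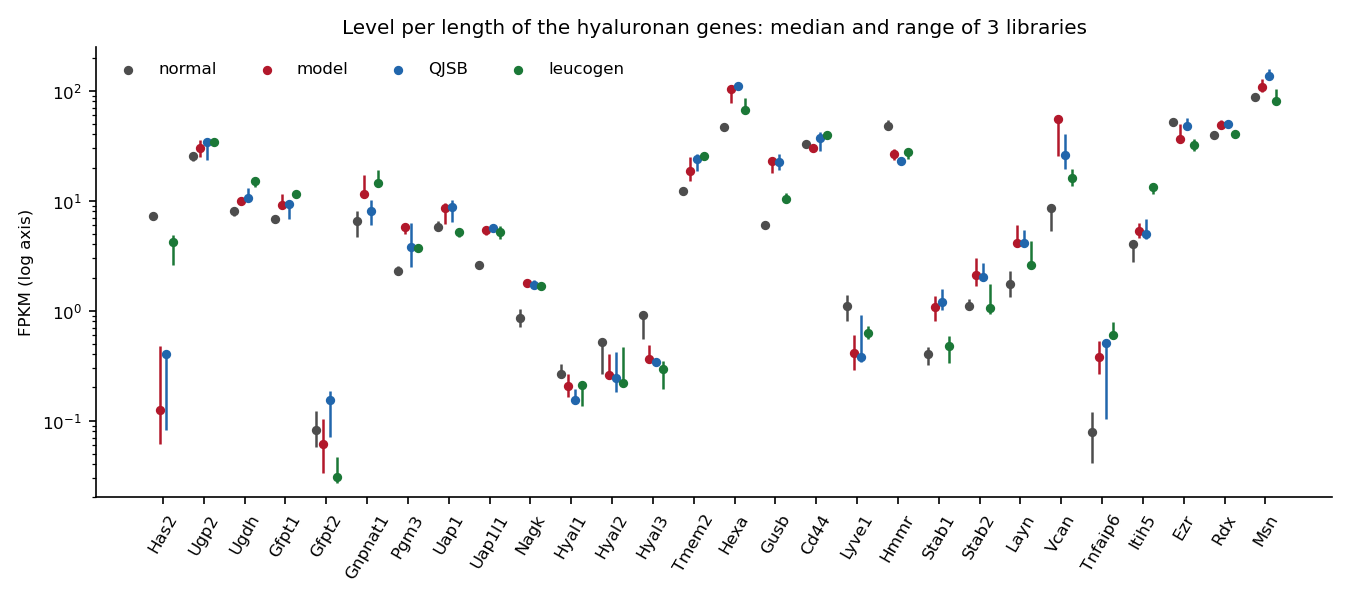
FPKM (log axis) of hyaluronan genes with a read in every library, where the point is the median and the line the range of the 3 libraries of a group. Has2 stands at 6.66 to 7.90 FPKM in normal and at 0.061 to 0.48 in model, while the 3 hyaluronidases stay under 1 FPKM in every library.

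The synthase gene Has2 was abundant in normal marrow, almost absent from model and QJSB marrow, and intermediate in leucogen marrow. It had 474, 457 and 414 counts in the 3 normal libraries, 4, 27 and 9 in model, 6, 32 and 30 in QJSB and 225, 162 and 229 in leucogen. Scaled, these were 34.3, 31.3 and 28.5 CPM in normal, 0.23, 1.91 and 0.52 CPM in model, 0.32, 1.85 and 1.83 CPM in QJSB and 17.9, 11.7 and 22.0 CPM in leucogen. The normal and leucogen libraries each lay apart from all others, with every normal library above every leucogen library, and the model and QJSB libraries overlapped. As a share of the normal mean, the model libraries kept 0.735% to 6.09%, the QJSB libraries 1.03% to 5.89% and the leucogen libraries 37.4% to 70.0%.

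Between QJSB and normal, which use neither group that chose the gene, Has2 fell by 4.55 on the log2 scale (standard error 0.48). It went from 31.4 ± 2.90 CPM (SD, n = 3) to 1.33 ± 0.88 CPM, or to 4.25% of the normal mean. The QJSB mice shared the cyclophosphamide with the model mice, so this difference is that of both agents together. It was lower in 3 of 3 QJSB libraries than in any normal library. Has2 passed the filter on low counts only through the normal libraries, since QJSB 1 was too low to meet it. A gene kept in this way is favoured to differ, so the difference is given as a description without a test. With each library left out the log2 fold change ranged from -4.88 to -4.08.

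The remaining differences of Has2 are also descriptions. Model was lower than normal by a log2 fold change of -5.19 (standard error 0.56), and leucogen was higher than model by 4.33 (standard error 0.64). Both rest on a few counts in model, and without model 2, the model library with the most Has2 counts, they were -6.34 and 5.52. Leucogen stayed below normal at -0.85 (standard error 0.21), with 17.2 ± 5.15 CPM or 54.7% of the normal mean. QJSB stood at -3.71 against leucogen (standard error 0.55). Between QJSB and model the log2 fold change was 0.59 with a standard error of 0.84, and the groups overlapped. That value moved from 0.13 without model 1 to 1.79 without model 2, so its size rests on single libraries.

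The other synthase genes were hardly read. Has1 had at most 3 counts and Has3 at most 3 counts in any library, and neither passed the filter on low counts. Has2os, a noncoding gene on the opposite strand whose exons overlap those of Has2 over 182 bases, had 8, 8 and 6 counts in normal, 0, 0 and 1 in model, 0, 2 and 0 in QJSB and 3, 7 and 6 in leucogen. Its order over the groups was thus close to that of Has2, at counts too low to test. The libraries were made strand-specific, but whether strand was used in counting is not given in the sources used here, so reads of the shared bases could count for either gene.

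**Figure D2:**
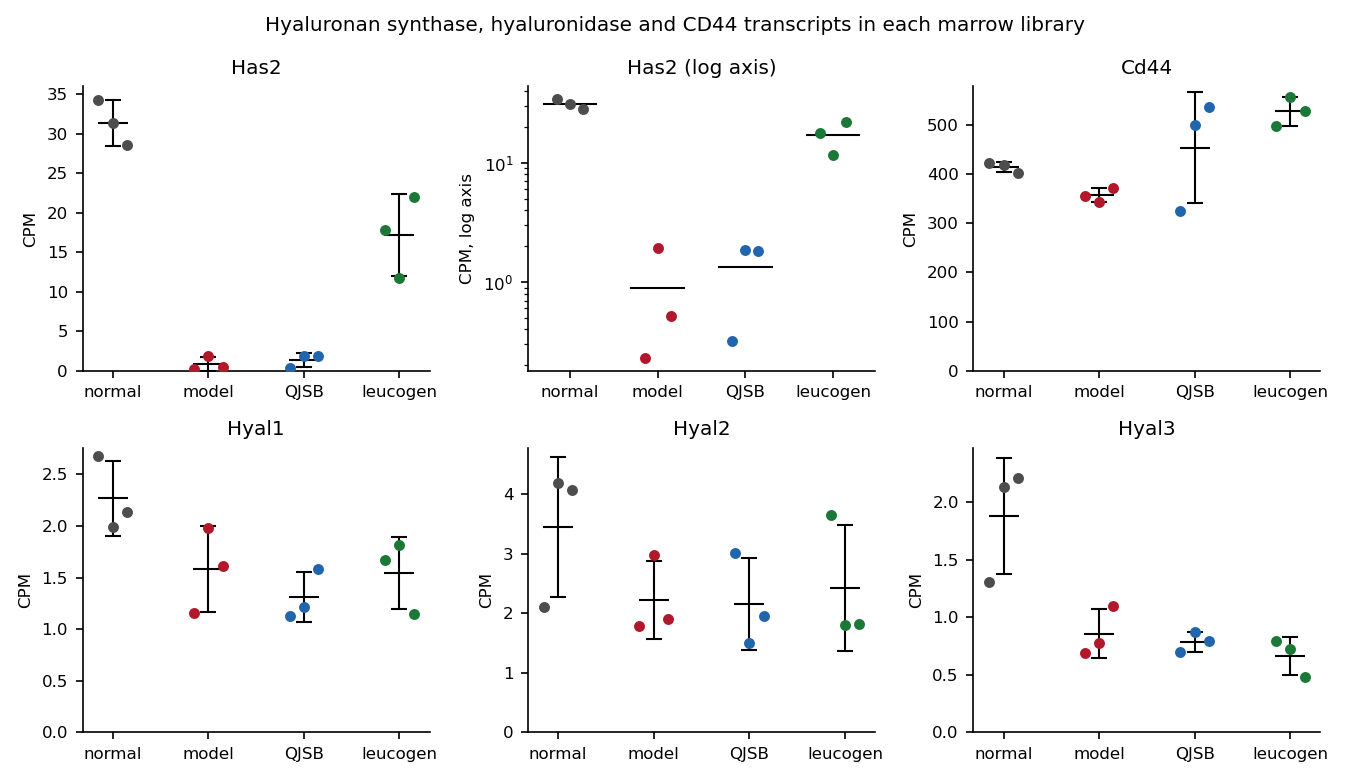
CPM of the 5 genes in each of the 12 libraries (points), with the mean and SD of the 3 libraries of a group, and Has2 repeated on a log axis with the mean only. Has2 is at 28.5 to 34.3 CPM in normal and 11.7 to 22.0 CPM in leucogen, and at most 1.91 CPM in model and QJSB.

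Of the hyaluronidases, Hyal3 was lower than normal in each cyclophosphamide group, while Hyal1 and Hyal2 passed no test. HYAL3 is the least understood of these enzymes, with little activity of its own. Hyal3 had 18, 31 and 32 counts in normal, 12, 11 and 19 in model, 13, 15 and 13 in QJSB and 10, 10 and 5 in leucogen. Every normal library, at 1.30 to 2.21 CPM, lay above every other library, the highest of which was model 3 at 1.10 CPM. The log2 fold change against normal was -1.12 in model (standard error 0.37, edgeR adjusted p = 0.0414) and -1.24 in QJSB (standard error 0.35, edgeR adjusted p = 0.0218). In leucogen it was -1.45 (standard error 0.39), given without a test. The 3 comparisons share the normal libraries. The call in model was lost without normal 2 (adjusted p = 0.142 from edgeR), normal 3 (0.140), model 1 (0.101) or model 2 (0.0920), and in 6 other alternatives, and the call in QJSB without normal 2 (0.0899), normal 3 (0.0827) or QJSB 3 (0.0564). Between leucogen and normal Hyal3 passed the filter on low counts only through the normal libraries, as its leucogen counts did not meet it in all 3 libraries. That is why no test is given there. With each library left out the value ranged from -1.65 to -1.29. Nat6, which shares exon bases with Hyal3, also fell in leucogen against normal, by 0.97 in log2 terms (edgeR adjusted p = 0.00142), from 9.34 to 12.3 CPM in normal to 4.70 to 5.94 CPM.

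Hyal1 had 37, 29 and 31 counts in normal, 20, 28 and 28 in model, 21, 21 and 26 in QJSB and 21, 25 and 12 in leucogen. Its mean was 2.27 CPM in normal, 1.58 in model, 1.31 in QJSB and 1.54 in leucogen, and the normal libraries lay just above all others, 1.99 CPM in normal 2 against 1.98 CPM in model 2. The log2 fold change of QJSB against normal, -0.78 with a standard error of 0.30, had an edgeR adjusted p of 0.0696, and passed (-0.81, adjusted p = 0.0412) when only genes with at least 10 counts in every library were tested. That of model (-0.52) and leucogen (-0.52) had adjusted p of 0.246 and 0.189 from edgeR. Hyal2 had 29, 61 and 59 counts in normal, 31, 42 and 33 in model, 56, 26 and 32 in QJSB and 46, 25 and 19 in leucogen. A single library stood apart in several groups, low in normal 1 (2.10 CPM) and high in QJSB 1 (3.01 CPM) and leucogen 1 (3.65 CPM), and all groups overlapped. Against normal its log2 fold changes were -0.64 in model, -0.66 in QJSB and -0.48 in leucogen, with edgeR adjusted p from 0.194 to 0.314. These levels rest on 12 to 61 counts a library. Between leucogen and model, without a test, the log2 fold change was -0.02 for Hyal1, 0.14 for Hyal2 (-0.01 when scaled by total counts) and -0.34 for Hyal3, each with overlapping groups. Between QJSB and model it was -0.29, -0.05 and -0.14, and between QJSB and leucogen -0.27, -0.20 and 0.20, with edgeR adjusted p of at least 0.611 and overlapping groups throughout. Gm9917, an antisense gene that overlaps Hyal2 outside its exons, had 20, 19 and 36 counts in normal and 4 to 14 in the other libraries, and passed the filter against normal through the normal libraries, so no test is given.

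The receptor gene Cd44 had 4847 to 8819 counts a library and moved little. It had 423, 418 and 402 CPM in normal, 355, 344 and 372 CPM in model, 325, 499 and 537 CPM in QJSB and 497, 557 and 528 CPM in leucogen. The leucogen libraries lay above the normal libraries and these above the model libraries, while QJSB spread from below the lowest model library to within the leucogen range. Leucogen was higher than normal by 0.37 on the log2 scale (standard error 0.08, edgeR adjusted p = 0.00318), less than the fold change of the cutoff, in 3 of 3 libraries. With all 12 libraries in one edgeR fit the adjusted p of that difference was 0.1. Leucogen against model, without a test, stood at 0.57 (standard error 0.13), and at 0.40 when scaled by total counts. Model against normal (-0.21, edgeR adjusted p = 0.156), QJSB against normal (0.14, adjusted p = 0.557) and QJSB against model (0.33, adjusted p = 0.767) did not pass.

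Read by comparison, 1 of 4 tested members passed the cutoff between model and normal, Hyal3, where 35.1% of all 14752 genes tested passed. Between QJSB and normal it was 1 of 4, Hyal3, against 37.9% of 14817 genes. Has2 was left out there because it passed the filter on low counts only through the normal libraries. Between leucogen and normal Hyal3 was left out for the same reason, and none of Hyal1, Hyal2 and Cd44 passed, against 37.7% of 14637 genes. Between QJSB and leucogen 0 of 4 passed by edgeR or DESeq2, and 0 had an unadjusted p under 0.05 in edgeR, where of all genes 24.6% passed by edgeR, 17.6% by DESeq2 and 42.1% had such a p. Between QJSB and model 0 of 4 passed by edgeR or DESeq2, and 0 had an unadjusted p under 0.05 in edgeR, where 0.0% of all 14486 genes passed by edgeR, 0.0368% (8 genes) by DESeq2 and 4.99% (723 genes) had such a p. A fit that blocked on the replicate number called 18 genes there, none of the 4 tested members among them. Between leucogen and model, where the members were not tested, 23.1% of 14184 genes passed. The members' shares were near or under those of all genes.

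**Figure D3:**
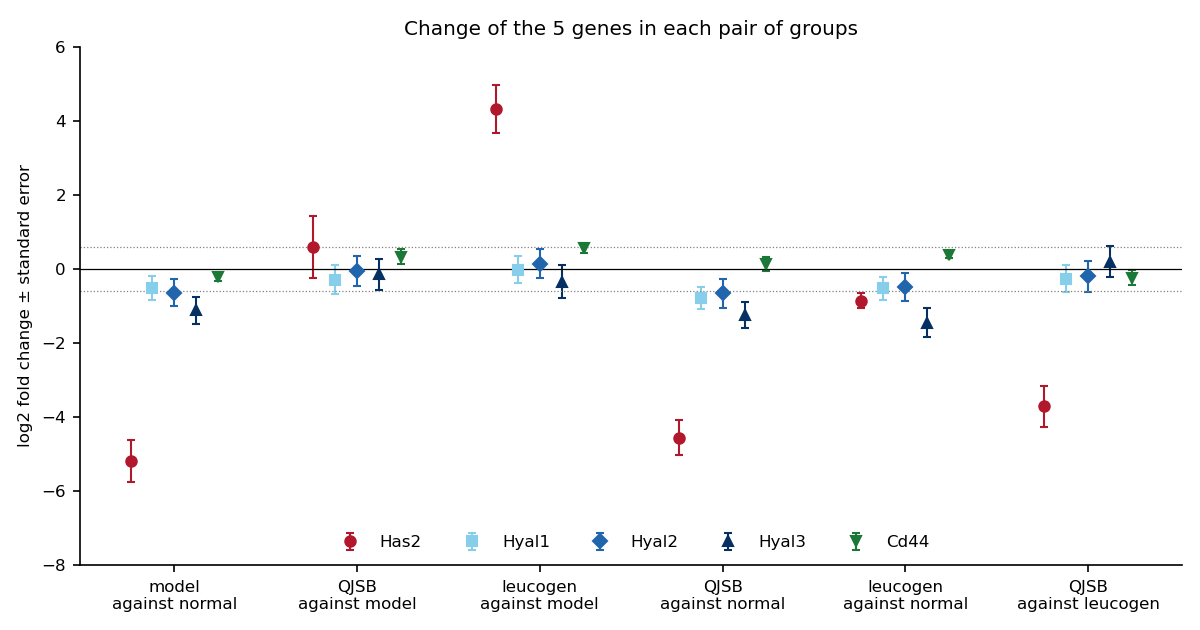
Log2 fold change of the 5 genes in each pair of groups, with its standard error as bars and the 1.5-fold change of the cutoff in either direction as dotted lines. Has2 ranges from -5.19 to 4.33, and the other 4 genes stay between -1.45 and 0.57.

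Late neutrophil transcripts also differed between the groups, in their sum in another order than Has2, though not in every single marker. The summed CPM of 10 late neutrophil markers was 10242 to 10775 in normal, 2027 to 6334 in model and 14565 to 18610 in leucogen, none of them at 0 in any group. In QJSB it was 3310, 18617 and 12564 CPM. QJSB 2 and QJSB 3 thus stood above every normal library in this sum, with 8 and 6 of the 10 markers at or above the lowest normal library, and their Has2 stayed at 5.89% and 5.82% of the normal mean. Cxcr2, the chemokine receptor of mature neutrophils, showed the same in single values, with 290 and 272 CPM in QJSB 2 and QJSB 3, 259 to 280 CPM in leucogen and 236 to 245 CPM in normal. Retnlg instead had the group order of Has2, with 1182 to 1287 CPM in normal and 896 to 1015 in leucogen. It had 9.66, 738 and 338 CPM in QJSB and 7.39, 194 and 36.0 in model. Mmp8 too stayed below normal in QJSB, at 221 to 985 CPM against 1265 to 1387. Of the 10 markers 6 rose in leucogen against model (median log2 fold change 2.07), where 11.6% of all genes were higher. Between QJSB and leucogen 0 of the 10 passed, where 24.6% of all genes did, and their median was -0.84. Has2 stood at -3.71 there, without a test. The part of neutrophil content in the Has2 levels was not tested.

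**Figure D4:**
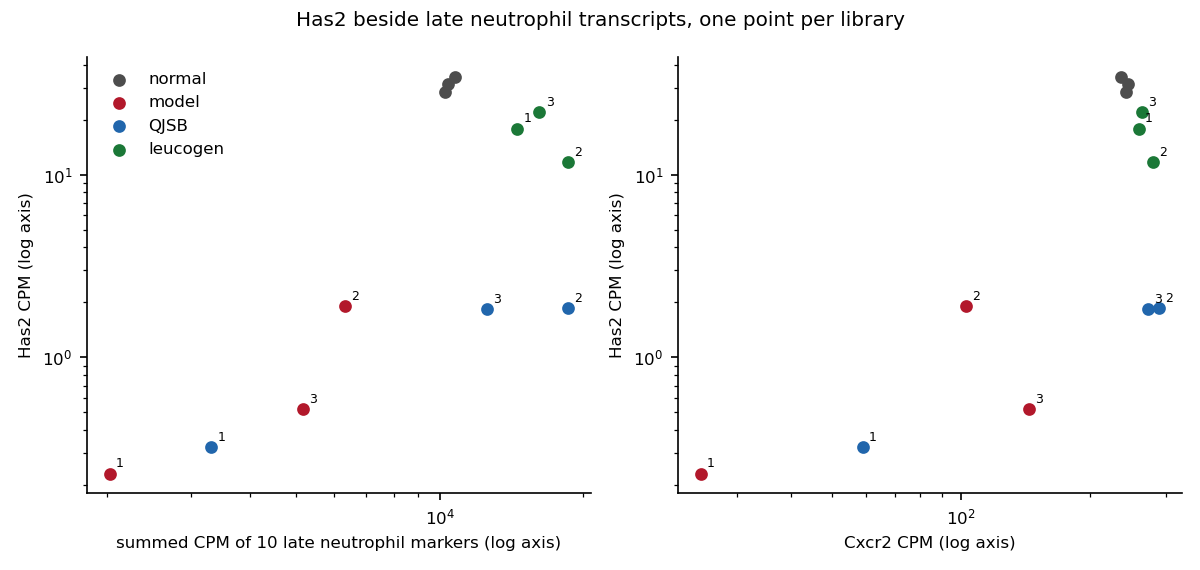
Has2 CPM against the summed CPM of 10 late neutrophil markers (left) and against Cxcr2 CPM (right), all on log axes, with a point for each library and the replicate number beside those of model, QJSB and leucogen. QJSB 2 and 3 lie beyond every normal library on the marker axis, at 18617 and 12564 CPM, and at 1.85 and 1.83 CPM on the Has2 axis.

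Stromal markers went in both directions. The summed CPM of 11 mesenchymal stroma markers was 346 to 420 in normal, 192 to 227 in leucogen, 212 to 772 in model and 194 to 929 in QJSB. The highest sums, 772 in model 1 and 929 in QJSB 1, were in the libraries with the fewest Has2 counts of their groups, 4 and 6. Taken singly, 2 of the 11 passed as higher than normal and 0 as lower in model (median log2 fold change 0.30). In QJSB these were 1 and 1 (median -0.10), and in leucogen 2 and 4 (median -0.37). Endothelial markers summed to 121 to 137 CPM in normal, 95.3 to 120 in model, 115 to 118 in QJSB and 76.7 to 103 in leucogen. Singly, 3 of 7 passed as higher than normal and 0 as lower in model (median log2 fold change 0.43). In QJSB these were 4 and 0 (median 0.64), and in leucogen 1 and 1 (median 0.40). Among all genes, 16.1% were higher and 19.0% lower in model, 18.0% and 19.9% in QJSB and 17.8% and 19.8% in leucogen. Eosinophil markers were 1273 to 1627 CPM in normal and at most 257 CPM in any cyclophosphamide library, leucogen included. The part of these cell types in the Has2 levels was not tested.

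The genes whose levels over the 12 libraries were most like Has2 were Mpp5, D1Ertd622e, Arhgap24, Fbxo11, Ppp1cb, Cdk17, Atad2b, Kmt2c, Osbpl8 and Ddx60, the first 10 of 12078 named genes by Pearson's r of log2 CPM, from 0.986 down to 0.977. Without the leucogen libraries, over 9 libraries, the r of the same 10 genes was 0.976 to 0.996. These 9 are among the 12 libraries on which the genes were chosen, so this r is no separate measure of likeness. All 10 had higher means in normal and leucogen than in model and QJSB, with smaller ratios between groups than Has2. Ddx60, a helicase gene induced by interferon, had 72.6 ± 2.05 CPM (SD, n = 3) in normal, 19.6 ± 7.02 in model, 21.2 ± 8.64 in QJSB and 70.1 ± 13.8 in leucogen. Mpp5, which encodes a scaffold of cell polarity, had 98.8 ± 5.61, 51.0 ± 7.24, 54.3 ± 8.49 and 93.3 ± 9.01 CPM in the same order. Kmt2c, which encodes a histone methyltransferase, had 633 ± 6.43, 325 ± 19.9, 361 ± 67.0 and 561 ± 30.6 CPM. Among the members the r with Has2 over 12 libraries was 0.61 for Hyal1, 0.50 for Cd44, 0.44 for Hyal3 and 0.39 for Hyal2. These r are descriptions over libraries that share groups and depth.

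The wider hyaluronan pathway was listed as 45 further genes by role, a list drawn up with earlier results of these data known. Of these, 7 had no count in any library, among them Hyal4, Spam1 and Hapln2, and 12 had at most 10 counts in any library and were never tested, among them Has1, Has3, Cemip and Acan. The other 26 were tested in at least 1 comparison, and 23 passed in at least 1. Against normal, 11 of 23 tested genes were higher and 2 lower in model (median log2 fold change 0.57, where that of all genes was 0.02), 13 higher and 1 lower of 24 in QJSB (median 0.75 against 0.02), and 15 higher and 2 lower of 24 in leucogen (median 0.85 against -0.01). Among all genes, 16.1% were higher and 19.0% lower in model, 18.0% and 19.9% in QJSB and 17.8% and 19.8% in leucogen. These counts and medians include Ambp in model and QJSB and Ptx3 and Tnfaip6 in leucogen, which reached the test only through the group where they were high. The 3 comparisons share the normal libraries.

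Of the genes of the sugar precursors, 4 of 8 tested were higher than normal in model, 3 of 9 in QJSB and 6 of 8 in leucogen, and none passed as lower. In model these were Pgm3 and Gnpnat1, which act on the way to UDP-N-acetylglucosamine, by log2 fold changes of 1.16 and 0.92 (edgeR adjusted p = 0.000578 and 0.0225), Uap1l1 by 0.93 (adjusted p = 0.00153) and Nagk, which encodes N-acetylglucosamine kinase, by 0.94 (adjusted p = 0.00493). Pgm3 had 12.3 to 14.6 CPM in normal and 26.9 to 32.4 CPM in model. Gnpnat1 lost its call without normal 1, normal 3 or model 2, with an adjusted p of up to 0.0698. In QJSB 3 of 9 were higher than normal, Uap1l1 by 1.12 and Nagk by 1.03 (edgeR adjusted p = 0.000459 and 0.00420) and Pgm3 by 0.82 (adjusted p = 0.0419), which lost its call without any of 5 libraries, normal 1, 2 or 3 or QJSB 1 or 3 (adjusted p up to 0.131). In leucogen 6 of 8 were higher than normal: Gnpnat1 by 1.37, Uap1l1 by 1.07, Nagk by 1.01, Ugdh by 0.98, Gfpt1 by 0.85 and Pgm3 by 0.74 (edgeR adjusted p at most 0.000788). Ugdh encodes the dehydrogenase that makes UDP-glucuronic acid and Gfpt1 the enzyme that opens the hexosamine route.

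Ugdh also rose in leucogen against model, by 0.79 in log2 terms (edgeR adjusted p = 0.00633), from 75.5 to 82.4 CPM in model to 116 to 149 CPM in leucogen. It was the single precursor gene of 8 to pass there. Between QJSB and leucogen Gnpnat1 was lower in QJSB by a log2 fold change of -1.08 (edgeR adjusted p = 0.00664), at 16.8 to 24.4 CPM against 38.5 to 53.4 CPM. Uap1, which encodes the enzyme that attaches UDP to N-acetylglucosamine phosphate, was higher in QJSB by 0.63 (adjusted p = 0.0231), a call lost without leucogen 1 or 3 or QJSB 1 or 3 (adjusted p up to 0.0954).

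Gusb and Hexa, genes of lysosomal enzymes that take hyaluronan fragments apart, were higher than normal in all 3 cyclophosphamide groups. Gusb, which encodes beta-glucuronidase, had 48.5 to 53.2 CPM in normal, 134 to 191 CPM in model, 154 to 196 CPM in QJSB and 82.2 to 101 CPM in leucogen, so the leucogen libraries lay between normal and the other cyclophosphamide libraries. Its log2 fold change against normal was 1.70 in model, 1.87 in QJSB and 0.88 in leucogen (edgeR adjusted p = 8.88e-05, 4.91e-05 and 5.90e-05). It fell in leucogen against model by 0.83 (edgeR adjusted p = 0.00807) and was higher in QJSB than in leucogen by 0.98 (adjusted p = 0.00373). Hexa, which encodes a subunit of hexosaminidase, was higher than normal by 0.94 in model, 1.23 in QJSB and 0.69 in leucogen (edgeR adjusted p = 0.00185, 0.000175 and 0.000735), the last under the fold change of the cutoff without leucogen 2 (0.52). Tmem2, a cell surface protein with hyaluronidase activity, was higher than normal in QJSB by 0.93 and in leucogen by 1.12 (edgeR adjusted p = 0.00488 and 7.42e-06), from 79.7 to 85.0 CPM in normal to 113 to 189 and 156 to 194 CPM. In model Tmem2 just missed the cutoff, at 0.57 (edgeR adjusted p = 0.0503), with every model library above every normal library.

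Receptor genes other than Cd44 went in both directions. Hmmr, whose product also works on the mitotic spindle of dividing cells, fell against normal by 1.00 in model, 1.07 in QJSB and 0.79 in leucogen in log2 terms (edgeR adjusted p = 0.000940, 0.000385 and 0.000260), from 272 to 325 CPM in normal to 123 to 189 CPM in the others. Stab1 and Stab2, scavenger receptors of sinusoidal endothelium, rose in model by 1.31 and 0.87 (edgeR adjusted p = 0.00251 and 0.0118) and in QJSB by 1.66 and 0.94 (adjusted p = 0.000707 and 0.00304), and did not pass in leucogen. Stab1 had 5.28 to 7.68 CPM in normal, 12.5 to 19.4 in model, 16.6 to 23.5 in QJSB and 5.76 to 9.37 in leucogen. It was lower in leucogen than in model by a log2 fold change of -1.04 (edgeR adjusted p = 0.0168), a call lost without model 1 or leucogen 3 (adjusted p up to 0.0758), and higher in QJSB than in leucogen by 1.36 (adjusted p = 0.00507). Stab2 was higher in QJSB than in leucogen by 0.75 (edgeR adjusted p = 0.0421), a call lost when any of 5 libraries, leucogen 2 or 3 or QJSB 1, 2 or 3, was left out (adjusted p up to 0.154), and its call in model was lost without normal 3 (adjusted p = 0.0513).

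Layn, which encodes the receptor layilin, rose against normal by 1.24 in model, 1.32 in QJSB and 0.86 in leucogen (edgeR adjusted p = 0.00769, 0.00434 and 0.0288), the last lost without normal 1, normal 2 or leucogen 1 (adjusted p up to 0.116). Lyve1, a receptor of lymphatic endothelium and of some macrophages, was lower in model by a log2 fold change of -1.46 (edgeR adjusted p = 0.0129), at 0.71 to 1.38 CPM against 2.17 to 3.65 CPM in normal, a call lost without normal 3 (adjusted p = 0.0596). The summed CPM of 8 macrophage markers was 497 to 554 in normal and 215 to 363 in the cyclophosphamide libraries, and its part in these receptor levels was not tested.

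Among the genes of matrix proteins that bind hyaluronan, Vcan and Itih5 had enough reads in every group to be tested throughout. Vcan, which encodes the proteoglycan versican and is also read at high levels in monocytes, had 176, 184 and 108 CPM in normal, 1070, 1042 and 496 CPM in model, 751, 415 and 535 CPM in QJSB and 392, 291 and 346 CPM in leucogen. It rose against normal by 2.48 in model, 1.88 in QJSB and 1.16 in leucogen in log2 terms (edgeR adjusted p = 0.00127, 0.00146 and 0.00535). It was lower in leucogen than in model by -1.34 (edgeR adjusted p = 0.0132), a call lost without leucogen 3 (adjusted p = 0.0584), and higher in QJSB than in leucogen by 0.70 (adjusted p = 0.0492), a call lost without any of leucogen 1, 2 or 3, QJSB 1 or QJSB 3 (adjusted p up to 0.150). The summed CPM of 6 monocyte markers, 1480 to 1598 in normal, 3480 to 6613 in model, 3749 to 4456 in QJSB and 2217 to 2794 in leucogen, moved beside Vcan, and its part was not tested.

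Itih5, a heavy chain of the inter-alpha-trypsin inhibitor family, whose members can be bound to hyaluronan, had 22.1 to 33.4 CPM in normal, 35.3 to 46.3 in model, 36.4 to 49.3 in QJSB and 91.2 to 122 in leucogen. It rose in leucogen by 1.91 against normal and by 1.47 against model (edgeR adjusted p = 2.63e-05 and 0.00178) and was lower in QJSB than in leucogen by a log2 fold change of -1.38 (adjusted p = 0.00285). Ptx3, which encodes a pentraxin that helps to crosslink hyaluronan, had 29, 23 and 18 counts in leucogen and at most 10 in any other library. Tnfaip6, whose product transfers heavy chains to hyaluronan, had 1, 2 and 3 counts in normal, 7, 12 and 11 in model, 3, 16 and 15 in QJSB and 13, 15 and 15 in leucogen. Ambp, which encodes the inhibitor bikunin, had 0 counts in every normal library, 12, 12 and 52 in model, 16, 32 and 36 in QJSB and 0, 3 and 7 in leucogen. These 3 genes passed the filter on low counts in some comparisons only through the group where they were high, and then had to differ, so their counts are given without a test.

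Of the linkers of CD44 to the cytoskeleton, Ezr, Rdx and Msn, none passed between model and normal, where Ezr had a log2 fold change of -0.49 (edgeR adjusted p = 0.0458), less than that of the cutoff. Msn was higher in QJSB than in normal by 0.68 and than in leucogen by 0.63 in log2 terms (edgeR adjusted p = 0.00791 and 0.0426), at 842 to 1191 CPM in QJSB, 618 to 641 in normal and 534 to 779 in leucogen. The first lost the fold change of the cutoff without QJSB 2 (0.54), and the second its call without leucogen 1 or 3 or QJSB 2 or 3 (adjusted p up to 0.157). Ezr was lower in leucogen than in normal by a log2 fold change of -0.62 (edgeR adjusted p = 0.000976), and by -0.51 without leucogen 1.

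Between leucogen and model, 3 of 25 tested pathway genes were higher (Ugdh, Itih5 and Ptx3, the last tested only through its leucogen reads) and 3 lower (Gusb, Stab1 and Vcan), where 11.6% of all genes were higher and 11.5% lower, and with total counts or FPKM 3 were higher and 5 lower. Between QJSB and leucogen 7 of 25 were higher and 3 lower, with Ambp and Ptx3 among them, where 12.9% and 11.7% of all genes were, and with DESeq2 size factors 4 were higher and 3 lower. Without leucogen 1, leucogen 3 or QJSB 3 the count was 6, 5 or 6 in place of 10. Between QJSB and model 0 of 25 passed by edgeR, DESeq2 or with the replicate block, and 1 had an unadjusted p under 0.05 in edgeR. The median log2 fold change of the list there was 0.12, where that of all genes was -0.02. The comparisons of a drug with model share the model libraries, and those with leucogen share the leucogen libraries. Scaling by total counts in place of TMM shifted the median of all genes from -0.05 to -0.22 between leucogen and model and from 0.02 to 0.14 between model and normal, and moved the share of higher genes among those past the cutoff from 50.1% to 30.2% and from 45.8% to 56.3%. On FPKM the first of these shares was 32.6%. Relative to that median, Has2 stood at 4.38 under both scalings between leucogen and model and Cd44 at 0.62, and 0 of the pathway genes past the cutoff changed sign in any comparison under total counts, DESeq2 size factors or FPKM.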

How the data were processed

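The authors made strand-specific libraries after removal of ribosomal RNA. Reads were cleaned with Seqtk, and Hisat2 placed them on GRCm38.p4 (mm10). The program that counted reads and its annotation are not given in the sources used here. The deposited table holds whole-number read counts per gene and library, without normalization. It also holds FPKM, which the authors computed from mapped fragments, transcript length and total fragments. Columns of counts and FPKM were read for all 12 libraries and 0 were left unused.

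Under R 4.3.3, counts were tested by edgeR 4.0.16, with TMM factors, the filterByExpr filter, robust glmQLFit fits and glmQLFTest, with the 2 groups compared in each fit and Benjamini-Hochberg adjustment over all genes tested. The fold change of the cutoff, 1.5, is that of the study's methods. The steps were tested on simulated counts. Log2 CPM used a prior count of 2. The members and gene lists were chosen with earlier results of these data known. Named genes are the 5 members, genes overlapping them, every listed pathway gene past the cutoff in at least 1 comparison (1 of them is not reported here), and the 10 genes with the highest Pearson r with Has2 among named genes with a mean of at least 1 CPM. Gene coordinates equal those of GENCODE M21, from which exon overlaps were taken.

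No replicates agreed within sampling noise (chi-square per degree of freedom 10.2 to 99.6). Between libraries with the same number, the deviations from the group means correlated by 0.426, 0.123 and 0.107 between QJSB and model over 15310 genes. Between QJSB and leucogen they correlated by 0.181, 0.134 and 0.0782, and in the other comparisons the signs were mixed. Pairing between QJSB and model was read from these correlations alone, and no label gives it. The main fits used no pairing in any comparison, and the replicate block was tried as an alternative only. The alternatives tried were DESeq2 1.42.0 (unfiltered), its size factors or total counts in edgeR, no filter, a minimum of 10 counts in each library, a single fit of the 12 libraries, the replicate block, leaving out each library, and limma 3.58.1 on log2(FPKM + 0.1) and log2(FPKM + 1), where the mean FPKM was 0.1 or more.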

Additional observations from a re-analysis of the deposited data

How the results depend on the processing

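Of the values of the 5 genes and the counts of genes past the cutoff, 42 of the values under alternatives changed side of the cutoff or sign, moved by over 1 SD between replicates where no test was made, or moved a count by over 1.5 times, and 580 did not. Has2 between QJSB and normal and Hyal3 between leucogen and normal were counted by the cutoff in this tally, though their tests are not given. Within that SD, the untested value of Has2 between QJSB and model ran from 0.098 to 1.79, and between leucogen and model Hyal1 ran from -0.19 to 0.20 and Hyal2 from -0.27 to 0.44, so neither has a direction. On log2(FPKM + 1), which shrinks low genes, Has2 was at -2.77 between model and normal, 1.98 between leucogen and model and -1.88 between QJSB and leucogen, Hyal3 at -0.36, -0.42 and -0.49 in model, QJSB and leucogen against normal, Cd44 at 0.39 between leucogen and model, and 3 pathway genes passed between leucogen and model in place of 6. Hyal3 between model and normal missed the cutoff with DESeq2 (-1.13), total counts (-1.01), no filter (-1.11) and on log2(FPKM + 0.1) (-0.85). With the replicate number as a block Hyal3 missed it in model (-1.11) and QJSB (-1.21) against normal, where the libraries share a number only, and 18 of all genes passed between QJSB and model in place of 0. The block changed no other call of a member. DESeq2 gave 8 genes between QJSB and model. Cd44 between leucogen and model was 0.40 with total counts and 0.40 on log2(FPKM + 0.1). With at least 10 counts in every library Hyal1 passed between QJSB and normal (-0.81, edgeR adjusted p = 0.0412). That filter removed Has2 from every comparison with model or QJSB, and Hyal3 from every comparison with leucogen, so they have no value under it.

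With each library left out, Has2 ranged from -6.34 to -4.71 between model and normal and from 3.87 to 5.52 between leucogen and model, Hyal3 from -1.34 to -0.97 in model and from -1.45 to -1.11 in QJSB against normal, and the genes past the cutoff from 0 to 3 between QJSB and model (3 without QJSB 1), from 1239 (without leucogen 3; 1724 without leucogen 1) to 3953 between leucogen and model and from 1544 (without leucogen 3; 2157 without leucogen 1) to 3585 between QJSB and leucogen. Pathway genes past the cutoff between QJSB and leucogen ranged from 5 to 10. Uncalled values changed sign: Hyal2 between QJSB and model ranged from -0.37 to 0.21 (0.21 without model 2, 0.16 without QJSB 2, 0.02 without QJSB 3), Hyal3 there from -0.28 to 0.081 (0.081 without model 3), and Hyal2 between QJSB and leucogen from -0.52 to 0.22 (0.22 without leucogen 1, 0.03 without QJSB 2). The cause of these shifts was not tested. Of the single pathway genes past the cutoff, 819 values kept their call and 74 lost it, all in the same direction. At 5 to 61 counts a library, depth limits what can be told of the hyaluronidase genes.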
